A study of Mus musculus with 25 samples.

Results

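The somatostatin receptors comprised 5 genes, Sstr1 to Sstr5, of the 24439 genes in the RNA-seq tables, and the 22 of 65053 consensus ATAC-seq peaks whose nearest annotated gene was one of them. Members were taken by gene name, and the rule used no measured value, although the family was picked with earlier results of these data known. Of the peaks, 9 were assigned to Sstr1, 5 to Sstr2, 1 to Sstr3, 6 to Sstr4 and 1 to Sstr5. Chromatin accessibility and expression were compared between a pair of mouse islet cell lines, the glucagon-producing αTC1 (alpha TC1 clone 6) and the insulin-producing βTC6 (beta-TC-6). ATAC-seq, in which a transposase cuts accessible DNA, covered 5 libraries of each line and 9 mixtures in steps of 10%, each made once. RNA-seq covered 3 libraries of each line. Neither line received a treatment, but each is a single established line from a mouse tumour driven by a viral T antigen transgene. The transgene stood under the glucagon promoter in αTC1 and the insulin promoter in βTC6. Each line grew in its own medium, with its own percentage of fetal bovine serum and its own glucose level. Line, clone and medium therefore cannot be told apart. Whether the replicates of a line were grown as separate cultures is not given in the sources used here, and p-values then measure only the spread between these libraries.

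Somatostatin is a peptide that the delta cells of the islet release onto their neighbours, where it holds back the secretion of both glucagon and insulin. Its receptors are membrane proteins coupled to inhibitory G proteins: once occupied they lower cyclic AMP, open inwardly rectifying potassium channels and restrain calcium channels, which hyperpolarizes the cell and slows exocytosis. Sstr2, Sstr3 and Sstr5 form the subgroup that binds the drug octreotide and its relatives, and Sstr1 and Sstr4 form the other. In mouse islets Sstr2 is known as the main receptor of alpha cells, Sstr5 as a receptor of beta cells, and Sstr3 as a receptor held in the primary cilium.

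The receptor peaks lay in different kinds of sequence, and 4 windows of 300 bases are printed to show them, 1 each for Sstr1 to Sstr4: a promoter and an intron, both in peaks that passed the FDR but not the fold threshold, and a called intergenic peak of Sstr1 and of Sstr4. All are the forward strand of mm9. The first lies directly upstream of the annotated start of Sstr2, at chr11:113480356-113480655, and its capitals mark an E-box core (CAGCTG) and a cAMP response element (TGACGTCA), the latter ending 66 bases before the start. The second is the centre of a peak 280 kb upstream of Sstr1, at chr12:59032858-59033157 in intergenic DNA, with a homeodomain core (TAATTA) in capitals. The third is the centre of the only Sstr3 peak, at chr15:78372167-78372466 within the intron of that gene. The fourth is the centre of a peak 21.5 kb upstream of Sstr4, at chr2:148199454-148199753 in intergenic DNA. Neither the third nor the fourth held any of the 4 motifs searched, and they are therefore in lower case throughout.
Sstr2 upstream: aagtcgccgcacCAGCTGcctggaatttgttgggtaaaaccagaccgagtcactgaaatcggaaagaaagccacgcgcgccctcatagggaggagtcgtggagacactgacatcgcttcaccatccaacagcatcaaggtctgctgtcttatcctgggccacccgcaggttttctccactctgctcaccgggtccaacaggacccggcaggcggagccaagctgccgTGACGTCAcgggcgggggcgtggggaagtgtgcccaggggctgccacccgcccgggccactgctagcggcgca
Sstr1 distal: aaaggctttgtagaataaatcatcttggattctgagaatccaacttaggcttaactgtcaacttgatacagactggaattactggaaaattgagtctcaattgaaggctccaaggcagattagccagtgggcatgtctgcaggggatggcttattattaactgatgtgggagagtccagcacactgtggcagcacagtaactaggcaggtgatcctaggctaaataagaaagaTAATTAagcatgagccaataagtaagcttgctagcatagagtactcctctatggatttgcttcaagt
Sstr3 intron: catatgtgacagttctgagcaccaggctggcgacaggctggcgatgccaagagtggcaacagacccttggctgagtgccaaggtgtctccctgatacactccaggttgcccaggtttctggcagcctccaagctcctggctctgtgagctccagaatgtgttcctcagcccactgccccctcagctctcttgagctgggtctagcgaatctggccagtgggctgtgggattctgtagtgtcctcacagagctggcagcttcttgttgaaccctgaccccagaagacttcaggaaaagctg
Sstr4 distal: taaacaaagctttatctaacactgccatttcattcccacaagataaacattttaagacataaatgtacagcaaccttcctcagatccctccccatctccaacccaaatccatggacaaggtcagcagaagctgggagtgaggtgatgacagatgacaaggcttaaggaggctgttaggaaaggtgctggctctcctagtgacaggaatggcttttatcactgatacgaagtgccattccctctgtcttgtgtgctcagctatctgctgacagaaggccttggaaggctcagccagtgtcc

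Motifs were searched on both strands of the central 300 bases of every peak. The cAMP response element (TGACGTCA) stood in 2 of the 22 receptor windows, one at the Sstr2 promoter and one 102 kb upstream of Sstr4, and in 1.06% of all peaks. The homeodomain core (TAATTA) stood in 4 receptor windows, all of them upstream of Sstr1, against 9.86% of all peaks. The E-box core (CAGCTG) stood in 6 receptor windows and in 23.8% of all peaks. The forkhead core (TGTTTAC) stood in none of the receptor windows and in 8.80% of all peaks. None of these motifs overlapped another in the receptor windows.

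Expected counts per RNA-seq library ranged from 21954031 to 25004959 for αTC1 and from 24554808 to 26033482 for βTC6. Reads within consensus peaks ranged from 6903416 to 8300868 per library for αTC1, from 4397851 to 10374903 for βTC6 and from 5277983 to 7294832 for the mixtures. Line labels were checked against marker genes. Gcg, which encodes glucagon, stood between 12113 and 14406 FPKM in αTC1 and between 172 and 267 FPKM in βTC6, and Ins2, which encodes insulin, between 0.19 and 0.64 FPKM in αTC1 and between 23541 and 35748 FPKM in βTC6. All 7 beta cell markers were higher in βTC6 at an FDR under 5%, and 4 of 5 alpha cell markers were higher in αTC1, with Ttr as the exception. Summed over the list, acinar markers lay between 0.22 and 3.73 FPKM, endothelial markers between 0.04 and 0.29 FPKM, immune markers between 0.92 and 2.19 FPKM, fibroblast markers between 0.29 and 1.38 FPKM and duct markers between 4.10 and 13.2 FPKM over all 6 libraries.

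Of the 5 receptors, 4 passed the test with higher expression in βTC6 than in αTC1 (Sstr4 did not, and Sstr2 missed the FDR under alternatives), and Sstr3 was the most abundant of them in both lines. In FPKM, which scales for transcript length, the receptors together amounted to 3.03 to 3.23 in αTC1 libraries and 22.2 to 32.5 in βTC6 libraries. Of that sum Sstr3 made up 89.8% to 94.7% in αTC1 libraries and 79.9% to 86.6% in βTC6 libraries. By level per length, the order in βTC6 was Sstr3, Sstr5, Sstr2, Sstr1 and Sstr4, of which the neighbours Sstr2 and Sstr1 overlapped between libraries and the others did not. In αTC1 Sstr3 lay above Sstr2 in every library, and the other receptors were listed at 0.

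A gene was called when edgeR's quasi-likelihood test gave an FDR under 5% (Benjamini-Hochberg) together with a log2 fold change beyond 2 in either direction. Fold changes are βTC6 over αTC1 throughout. Among all genes with a count, 12.8% were called higher in βTC6, and 30.2% were higher at an FDR under 5% whatever the fold. Of the 5 receptors, 3 were called higher in βTC6 in that fit (Sstr1, Sstr3 and Sstr5), 4 passed the FDR (these and Sstr2), and none was called higher in αTC1, where 5.21% of genes were called and 27.2% passed the FDR. Only Sstr3 and Sstr5 reached the FPKM of 1 in every replicate of a line that the study's filter demands, and their adjusted p-values are those of the filtered fit. In the filtered fit 10.2% of genes were called higher in βTC6.

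Sstr3 (ENSMUSG00000044933, chr15:78367445-78374775, minus strand), which encodes the ciliary receptor, stood at 2.87, 2.90 and 2.92 FPKM in the αTC1 libraries. It reached 25.9, 22.4 and 19.2 FPKM in the βTC6 libraries. The lines did not overlap, and the lowest βTC6 library was replicate 3. Behind these values were 251 to 291 counts in αTC1 libraries and 1878 to 2654 in βTC6 libraries. With means of 2.90 ± 0.0252 and 22.5 ± 3.35 FPKM (SD, n = 3), the log2 fold change was 3.01 (standard error 0.12, adjusted p = 6.62e-08).

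Sstr5 (ENSMUSG00000050824, chr17:25626820-25634198, minus strand), the receptor known from beta cells, was listed at 0 in all 3 αTC1 libraries. In βTC6 it stood at 5.09, 4.38 and 2.24 FPKM, from 337, 291 and 141 counts. Replicate 3 was again the lowest and held less than the other βTC6 libraries by more than the gap between them. A count of 0 allows up to 3 counts, and against that floor in each αTC1 library the level, scaled to library size, was at least 79.3-fold higher in βTC6. For the lowest βTC6 library alone it was at least 41.8-fold higher (adjusted p = 1.56e-05 for the comparison of the lines).

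Sstr2 (ENSMUSG00000047904, chr11:113480656-113487319, plus strand), the receptor known from alpha cells, was low in both lines. It stood at 0.16, 0.33 and 0.21 FPKM in αTC1, from 6, 17 and 11 counts. In βTC6 it stood at 0.72, 0.65 and 0.40 FPKM, from 31, 30 and 19 counts. All βTC6 libraries lay above all αTC1 libraries, the closest pair being 0.33 and 0.40 FPKM. The log2 fold change was 1.14 (standard error 0.42, adjusted p = 0.0352 among all genes with a count). The difference did not reach the fold threshold in any fit, and it no longer passed the FDR with DESeq2 (log2 fold change 1.19, adjusted p = 0.0616), with library sizes from the spike-ins (1.17, adjusted p = 0.148), and without αTC1 replicate 1 or 3 or βTC6 replicate 1 or 2. Sstr2 lies within the locus of Slc39a11 on the other strand, with no exon of the pair overlapping in the annotation used here.

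Sstr1 (ENSMUSG00000035431, chr12:59312759-59315431, plus strand) was listed at 0 in αTC1 and stood at 0.67, 0.27 and 0.32 FPKM in βTC6. Those values rested on 34, 14 and 16 counts. Against a floor of 3 counts per αTC1 library it was at least 6.59-fold higher in βTC6, and at least 4.07-fold higher in the lowest βTC6 library (adjusted p = 0.000135 among all genes with a count). The mean βTC6 level of Sstr1 exceeded that of 46.4% of the genes in the tables, compared with 83.2% for Sstr3.

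Sstr4 (ENSMUSG00000037014, chr2:148221113-148226239, plus strand) gave no count in αTC1 and 2, 2 and 1 counts in βTC6, or 0.04, 0.04 and 0.03 FPKM. Both lines were within the limit of 3 counts per library, so no fold is given. The difference did not pass the test (adjusted p = 0.0721 among all genes with a count), and these libraries do not resolve Sstr4 expression in either line.

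**Figure D1:**
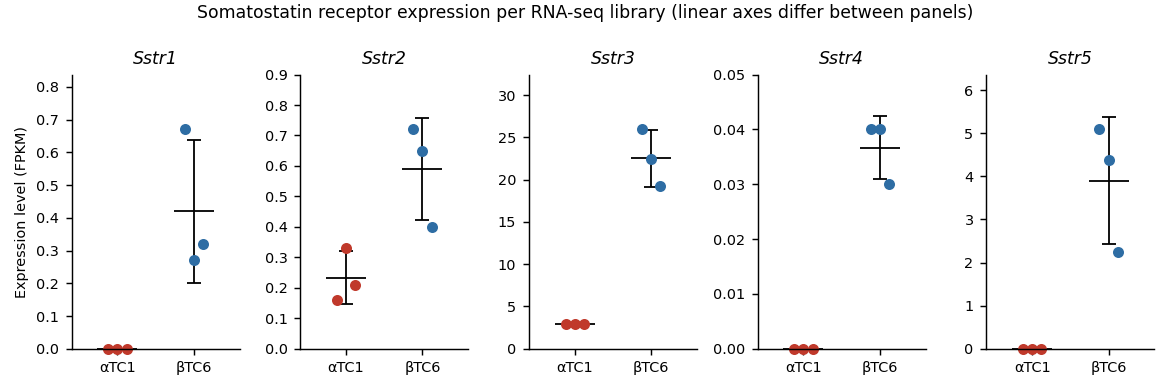
Expression of the 5 receptors in FPKM (vertical axes, linear, each with its own range) in the 3 αTC1 and the 3 βTC6 RNA-seq libraries; points are libraries, the wide bar is the mean and the error bar the SD. In each panel every βTC6 point lies above every αTC1 point, but the scale runs from 0.04 FPKM for Sstr4 to 25.9 FPKM for Sstr3.

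The genes whose profile across the 6 libraries was most like that of a receptor were listed by the distance between gene-centred log2(FPKM + 1) values. For Sstr3 these included Hspb1 and Popdc3, at distances of 0.129 and 0.138, against a median of 3.25 over all filtered genes. For Sstr5 the nearest were Bcl6b, Mia2 and Met, at distances of 0.236, 0.281 and 0.295, against a median of 2.92. Met, the receptor of hepatocyte growth factor, had a mean of 0.0200 FPKM in αTC1 and 3.39 FPKM in βTC6. With 2 lines these distances mostly compare the size of a single difference, and nothing further is drawn from them.

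Around the receptors, open chromatin differed between the lines in both directions. Each peak was tested with limma after adding 1 to its normalized read count, the authors' TMM-scaled number of reads, and taking log2, and called by the same FDR and fold thresholds as genes. Of all peaks 12.9% had a called gain in βTC6 and 5.38% a called gain in αTC1. Among the 22 receptor peaks 5 were called more open in βTC6, 4 of them at Sstr1 and 1 at Sstr2, and 2 were called more open in αTC1, both at Sstr4. At an FDR under 5% without the fold threshold, 13 peaks showed more signal in βTC6 and 6 in αTC1, against 39.9% and 38.1% of all peaks. With a pseudocount of 5 in place of 1 the only receptor peaks still called were the Sstr1 coding peak and the Sstr4 peak 21.5 kb upstream, and with edgeR on recovered reads 8 and 3 were called. Quantile normalization moved the split over all peaks from 8409 and 3502 to 5655 and 5126, and that of the receptor peaks to 4 and 3. The libraries of the lines did not overlap at 18 of the 22 peaks, compared with 63.9% of all peaks. The median log2 fold change was 1.35 over the receptor peaks and 0.00 over all peaks. Of the receptor peaks 11 lay more than 100 kb from a start site, which 24.7% of all peaks did, and 26.2% of such distant peaks were called in one direction or the other.

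**Figure D2:**
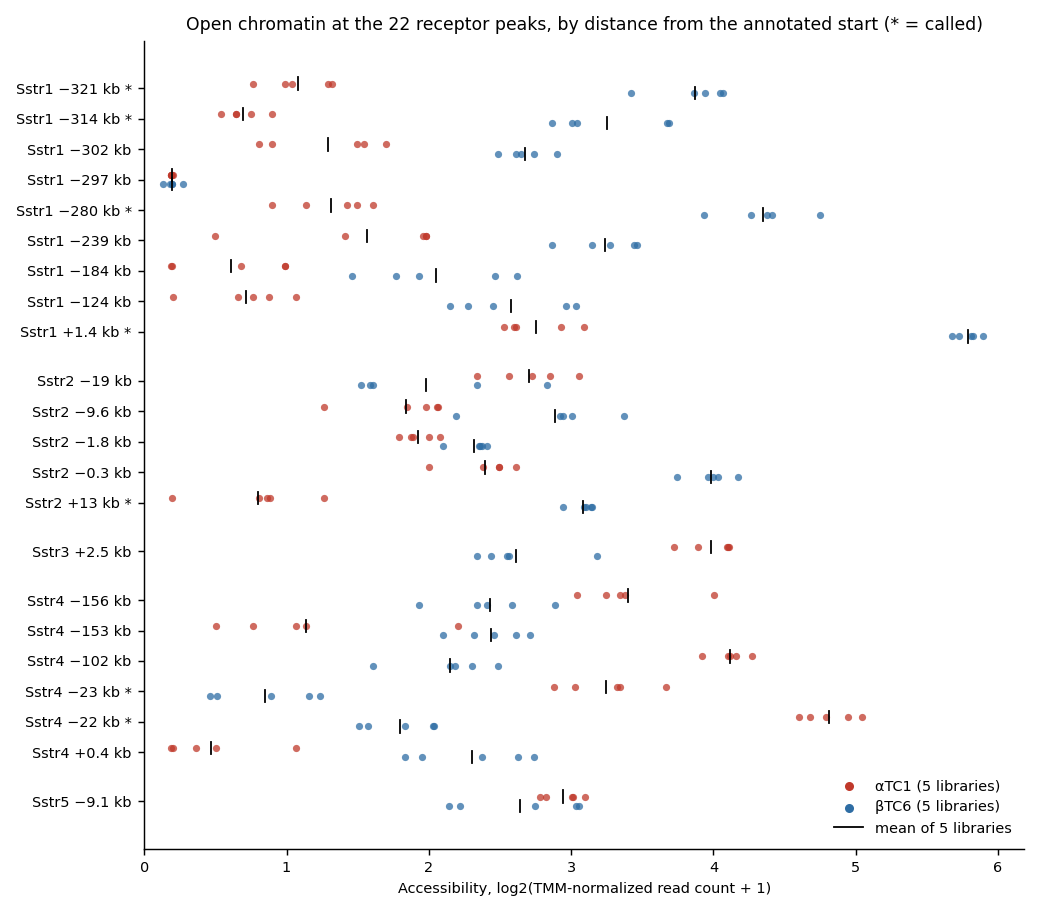
Accessibility of the 22 receptor peaks as log2(TMM-normalized read count + 1), horizontal axis, with 1 row per peak labelled by gene and distance from the annotated start. Each point is 1 of 5 αTC1 (red) or 5 βTC6 (blue) libraries and black ticks are means; an asterisk marks the 7 called peaks. The lines lie far apart at the Sstr1 coding peak and the Sstr1 peak 280 kb upstream, and the αTC1 mean lies to the right at Sstr3, at Sstr5, at 4 Sstr4 peaks and at the Sstr2 peak farthest upstream.

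At Sstr1 a peak over the gene itself and 3 distal peaks were called more open in βTC6. The peak at chr12:59313270-59315089 is 1819 bases long, is centred 1389 bases downstream of the start and covers the coding sequence, which lies in a single exon. Its normalized read count was 5.04, 6.60, 5.11, 7.51 and 4.77 in the αTC1 libraries. In the βTC6 libraries it was 51.8, 55.2, 50.3, 55.8 and 58.6. Every βTC6 library lay far above every αTC1 library, with 33 to 55 reads per library against 269 to 624. With means of 5.81 ± 1.19 and 54.3 ± 3.30 (SD, n = 5), the log2 fold change was 3.04 (standard error 0.13, adjusted p = 8.67e-14). In mean accessibility over the pure libraries, which is not scaled for peak length, this peak exceeded 86.9% of all peaks. The RNA of the gene was below 1 FPKM in every library.

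The other 8 peaks assigned to Sstr1 lay between 124 kb and 321 kb upstream, in DNA without an annotated gene. Of these, 3 were called more open in βTC6. The peak 280 kb upstream (chr12:59032562-59033453), whose centre is printed above, held 1.82, 1.69, 1.2, 2.05 and 0.867 normalized reads in αTC1. In βTC6 it held 19.7, 20.3, 18.2, 14.3 and 25.9 (log2 fold change 3.03, standard error 0.21, adjusted p = 8.04e-11). The lines were separated by a wide margin at this peak as they were at the coding peak. The peaks 321 kb and 314 kb upstream had log2 fold changes of 2.79 (standard error 0.21) and 2.56 (standard error 0.22). Those 302 kb, 239 kb, 184 kb and 124 kb upstream passed the FDR with log2 fold changes of 1.39, 1.67, 1.44 and 1.86. With edgeR on recovered reads those 184 kb and 124 kb upstream were also called (2.50 and 2.87), and the peaks 321 kb, 314 kb and 280 kb upstream had larger fold changes than the coding peak (3.58, 3.78 and 3.67 against 3.22), so no order among these peaks is given. The remaining peak, 297 kb upstream, stood at the lowest value of each of the 10 pure libraries. That floor is counted as 1 read but may stand for none, so the peak carried no information. For the 4 outermost peaks the nearest protein-coding locus in the annotation used here was Rpl26-ps2 rather than Sstr1. Other peaks within 1 Mb of Sstr1, 52 in number, had a median log2 fold change of 0.86, and all peaks of chromosome 12 one of 0.03.

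At Sstr2 the promoter was more open in βTC6. The peak at chr11:113480002-113480962, centred 313 bases upstream and reaching into the first exon, held 4.62, 4.21, 5.11, 3.0 and 4.62 normalized reads in αTC1. In βTC6 it held 15.3, 14.6, 17.0, 15.0 and 12.4. The lines did not overlap, and the difference passed the FDR but not the fold threshold (log2 fold change 1.59, standard error 0.17, adjusted p = 4.88e-08). This is the peak over the printed Sstr2 window with the cAMP response element. The RNA of Sstr2 differed in the same direction, but from few counts and without passing the FDR under several alternatives.

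Only the peak 12.6 kb downstream of the Sstr2 start (chr11:113493201-113493575), beyond the end of the gene, was called, and not after quantile normalization (1.89). Its normalized read count was 0.144 to 1.40 over the αTC1 libraries and 6.71 to 7.84 over the βTC6 libraries (log2 fold change 2.28, standard error 0.21, adjusted p = 6.91e-09). The peak 9.65 kb upstream was also more open in βTC6, by 1.05 on the log2 scale (standard error 0.24, adjusted p = 0.0006). The peak 18.6 kb upstream went the other way at -0.73 (standard error 0.26, adjusted p = 0.0159), with overlapping libraries. At the peak 1.84 kb upstream the lines did not overlap but the difference missed the threshold (log2 fold change 0.39, adjusted p = 0.0686). All 5 peaks lie within the Slc39a11 locus on the other strand. The 67 other peaks within 1 Mb had a median log2 fold change of -0.42.

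Sstr3 showed the opposite of its RNA. Its single peak (chr15:78371984-78372649), within the intron and centred 2458 bases downstream of the start, held 13.9, 12.2, 16.2, 16.1 and 16.2 normalized reads in αTC1. In βTC6 it held 8.09, 4.92, 4.05, 4.85 and 4.41, with replicate 1 above the others but still below every αTC1 library. The means were 14.9 ± 1.81 and 5.27 ± 1.62 (SD, n = 5), and the log2 fold change was -1.37 (standard error 0.18, adjusted p = 7.13e-07), short of the fold threshold. No consensus peak was centred within 2 kb of the Sstr3 start, the nearest peak edge being 2126 bases away. The other peaks within 10 kb of the gene were assigned to C1qtnf6, and the 73 peaks of other genes within 1 Mb had a median log2 fold change of -0.50.

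At Sstr4 the coding exon was more open in βTC6, whereas the distal peaks were mostly more open in αTC1. The peak over the coding exon (chr2:148221386-148221698) held 0.140, 0.421, 0.150, 1.09 and 0.289 normalized reads in αTC1, from 1 to 8 reads, of which 1 is the floor. In βTC6 it held 5.68, 2.87, 4.19, 2.57 and 5.16, from 14 to 55 reads. The lines did not overlap (log2 fold change 1.84, standard error 0.21, adjusted p = 1.39e-07). In mean accessibility, not scaled for peak length, the peak exceeded 6.29% of all peaks. At such low values the fold depends on the pseudocount: it was 2.36 with a pseudocount of 0.5 and 3.23 with edgeR on recovered reads, both called, and 0.74 with a pseudocount of 5.

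With a pseudocount of 1 the largest Sstr4 difference was in the window printed above. With edgeR on recovered reads the peaks 21.5 kb and 23.1 kb upstream were close, at -3.46 and -3.40. The peak 21.5 kb upstream (chr2:148199267-148199940) held 23.2, 26.7, 24.6, 31.9 and 29.8 normalized reads in αTC1. In βTC6 it held 1.85, 3.08, 3.11, 2.57 and 1.97, and the difference on the log2 scale was -3.02 (standard error 0.17, adjusted p = 4.47e-12). Its neighbour 23.1 kb upstream was likewise called, with means of 8.67 ± 2.08 in αTC1 and 0.848 ± 0.447 in βTC6 (SD, n = 5) and a log2 fold change of -2.40 (standard error 0.23). The peak 102 kb upstream, which holds the other cAMP response element, had a log2 fold change of -1.97 (standard error 0.18), with means of 16.4 ± 1.51 and 3.51 ± 0.936 (SD, n = 5). It missed the fold threshold here but was called with edgeR on recovered reads (-2.18), with a pseudocount of 0.5 (-2.10), after quantile normalization (-2.26) and without αTC1 replicate 1 (-2.02) or βTC6 replicate 3 (-2.05) or 5 (-2.01). The peak 156 kb upstream was more open in αTC1 (-0.97, standard error 0.22) and the one 153 kb upstream more open in βTC6 (1.30, standard error 0.26). The RNA of Sstr4 was at or below 2 counts in every library, so none of these differences could be set beside a measured level of the gene. The 54 other peaks within 1 Mb had a median log2 fold change of -0.47.

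At Sstr5, whose RNA was listed at 0 in αTC1, no consensus peak lay within 8905 bases of the start. The single peak assigned to it, 9.12 kb upstream (chr17:25643103-25643595), held 7.56, 7.02, 7.06, 5.87 and 6.07 normalized reads in αTC1. In βTC6 it held 3.41, 7.18, 7.30, 5.71 and 3.66, which overlapped αTC1. The difference did not pass the test (log2 fold change -0.30, standard error 0.22, adjusted p = 0.203), though it passed the FDR after quantile normalization (-0.66), and the 86 peaks of other genes within 1 Mb had a median of -0.66. A consensus peak had to be called in at least 2 libraries, so the absence of a listed peak says nothing about weaker signal at the Sstr5 and Sstr3 promoters.

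**Figure D3:**
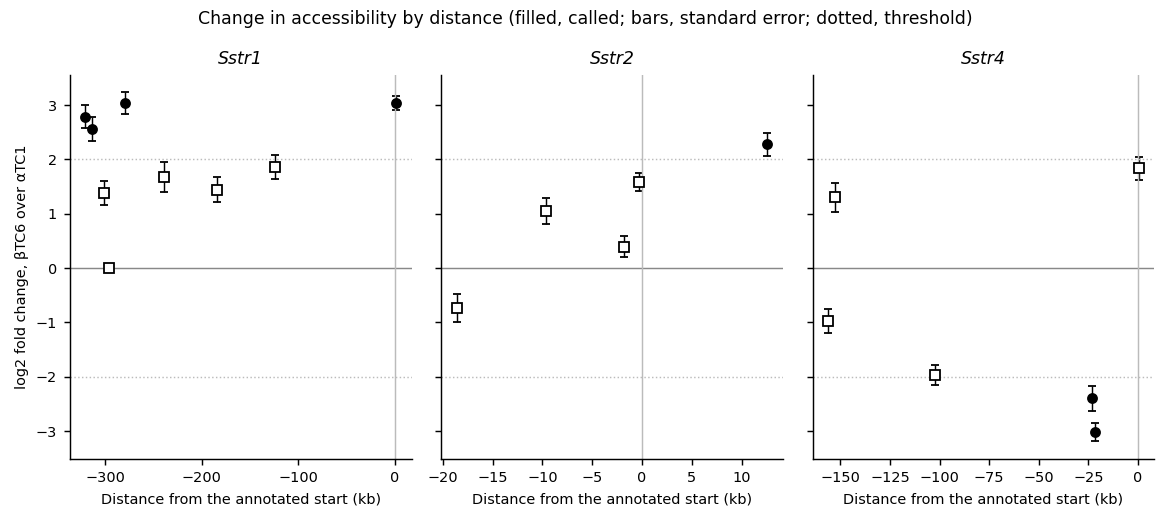
Log2 fold change in accessibility, βTC6 over αTC1 (vertical axis), against distance from the annotated start in kb (horizontal axes differ between panels) for the peaks of Sstr1, Sstr2 and Sstr4. Filled circles are called peaks, open squares the others, error bars standard errors and dotted lines the fold threshold. All Sstr1 peaks but the empty one lie above 0, whereas 4 of 6 Sstr4 peaks lie below it.

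The 9 mixtures entered none of the tests above and gave the receptor peaks a second measurement. For each peak the slope of log2(normalized read count + 1) on the percentage of βTC6 cells was fitted with limma and expressed per 100 percentage points, so that a positive slope means more signal with more βTC6. Over all peaks 33.5% had a positive and 24.8% a negative slope at an FDR under 5%, with a median of 0.09. Of the receptor peaks 13 had a positive slope, 6 a negative one and 3 none that passed, with a median of 1.35. Without single mixtures 11 to 13 had a positive and 5 to 6 a negative slope that passed. The counts that follow are those of all 9 mixtures. The 7 peaks called between the pure lines all had a slope of the same sign that passed, as did 18 of the 19 peaks that passed the FDR between the lines. Over all peaks the same held for 98.6% of those called and 71.1% of those past the FDR, and no difference from these shares was tested.

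The Sstr1 coding peak followed composition closely. From 10% to 90% βTC6 its normalized read count was 6.50, 12.5, 15.1, 21.0, 25.7, 34.6, 37.1, 46.2 and 50.4, each step higher than the one before. The slope was 3.28 (standard error 0.25, adjusted p = 2.97e-08). Of the 9 mixtures 2 lay above the straight line between the pure means, and at equal parts the value of 25.7 compared with 30.1 on that line. The Sstr1 peak 280 kb upstream rose from 3.45 at 10% βTC6 to 22.7 at 90% (slope 2.78, standard error 0.31, adjusted p = 1.55e-06).

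The Sstr4 peak 21.5 kb upstream fell from 24.2 normalized reads at 10% βTC6 to 6.86 at 90% (slope -1.82, standard error 0.27, adjusted p = 2.15e-05). The Sstr3 intronic peak fell too, from 14.2 to 6.59 (slope -1.44, standard error 0.32, adjusted p = 0.00101), with single mixtures off the trend, such as 16.5 at 20% βTC6 and 6.96 at 60%. At the Sstr2 promoter the count rose from 5.69 to 11.2 (slope 1.33, standard error 0.32, adjusted p = 0.00171). These directions were those of the pure lines.

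At the peaks of Sstr5 and 18.6 kb upstream of Sstr2 the tests of the mixtures and of the pure lines had different outcomes. The count of the Sstr5 peak was 5.49, 7.12, 6.20, 3.93, 3.51, 4.89, 2.86, 3.56 and 2.29 from 10% to 90% βTC6, a slope of -1.33 (standard error 0.43, adjusted p = 0.0137), of the same sign as the difference between the pure lines, which had not passed the test. At 90% βTC6 it lay below every pure βTC6 library. Without the mixture with 90% βTC6 the slope was -1.18 and no longer passed (adjusted p = 0.074). The Sstr2 peak 18.6 kb upstream had differed between the pure lines at an FDR under 5% and had a slope of 0.01 (standard error 0.48) in the mixtures.

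**Figure D4:**
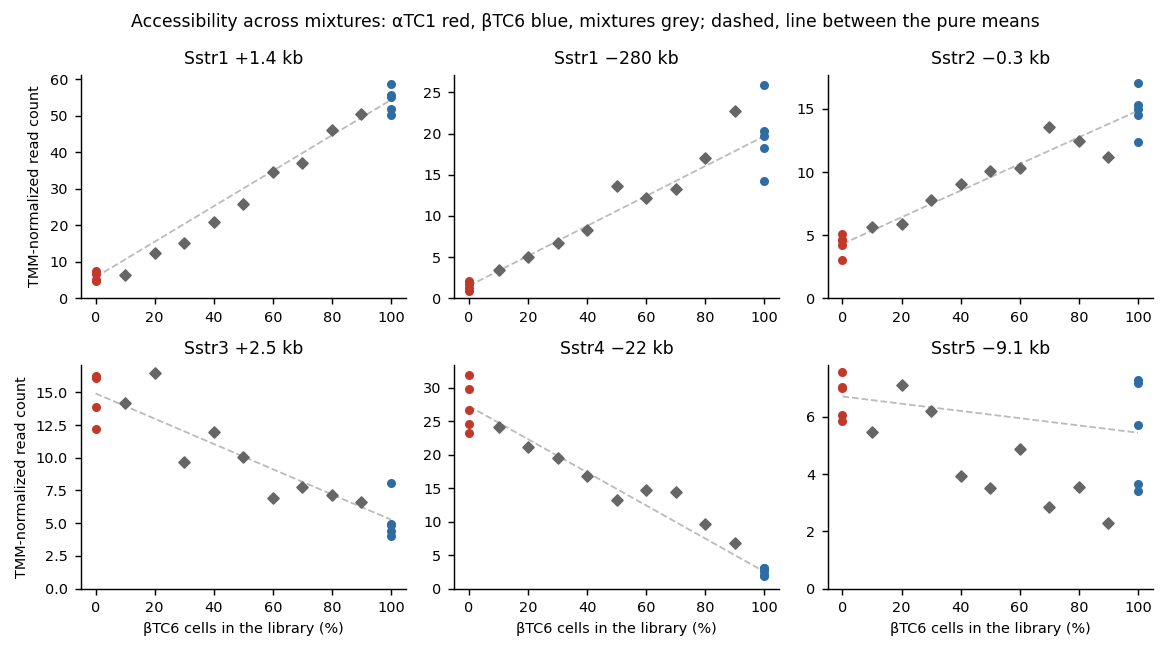
TMM-normalized read count (vertical axes, linear from 0) against the percentage of βTC6 cells for 6 receptor peaks. Red points at 0% are the 5 αTC1 libraries, blue points at 100% the 5 βTC6 libraries, grey diamonds the 9 mixtures, and the dashed line joins the pure means. The Sstr1 and Sstr2 peaks climb and the Sstr3 and Sstr4 peaks descend, with single mixtures away from the line. Only 2 of 9 mixtures lie above it at the Sstr1 coding peak and 1 of 9 at the Sstr5 peak.

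Genes that act with the receptors were counted by role from a list of 35, of which 28 reached the FPKM filter. Of these 28, 11 were called higher in βTC6 and 2 higher in αTC1, against 10.2% and 4.08% of all filtered genes. By the FDR alone, 20 were higher in βTC6 and 6 in αTC1, against 38.7% and 36.0% of all filtered genes. The median log2 fold change of the 28 was 0.84 and that of all filtered genes 0.01. Apart from Adcy9, every called gene of the list passed the filter only through the line where it was higher. The list was also chosen with earlier results of these data known, so these counts are descriptive and were not tested.

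Among the ligand precursors, Sst, which encodes somatostatin itself, was listed at 0 in all αTC1 libraries. In βTC6 it stood at 207, 234 and 325 FPKM, from 3015, 3430 and 4529 counts. Against the floor of 3 counts it was at least 1143-fold higher in βTC6 (adjusted p = 2.69e-07). βTC6 thus contained RNA of both the ligand and its receptors. Cort, which encodes the related peptide cortistatin, was below 1 FPKM throughout, at 0.49, 0.64 and 0.68 FPKM in αTC1 and 0.12, 0.18 and 0.25 FPKM in βTC6, and missed the filter; among all genes with a count it was lower in βTC6 by the FDR alone (adjusted p = 0.0241). Of the other delta cell markers, Hhex, a transcription factor of those cells, was at most at 0.13 FPKM in any library, and Rbp4 and Ghsr passed the FDR with higher values in αTC1. Summed, the delta list stood at 1242 to 1680 FPKM in αTC1 libraries, nearly all of it from Rbp4 (1240 to 1678 FPKM), and at 424 to 508 FPKM in βTC6 libraries, so the sum does not describe the list as a group. Ppy, the hormone of PP cells, also stood between 3.70 and 50.8 FPKM in βTC6 and at most at 0.10 FPKM in αTC1. Whether single βTC6 cells or a subset carry the Sst transcripts was not tested, since in bulk libraries fewer cells and less RNA per cell cannot be told apart.

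Of the 5 inhibitory G protein alpha subunits, which pass the signal from the receptors, 4 were higher in βTC6 at an FDR under 5% and 1 of them was called. Gnai1 stood at 0.75, 0.74 and 0.95 FPKM in αTC1 and at 10.1, 7.58 and 8.14 FPKM in βTC6, a difference of 3.45 on the log2 scale (standard error 0.17, adjusted p = 2.13e-07). The most abundant, Gnao1, had means of 177 ± 2.47 FPKM in αTC1 and 141 ± 6.82 FPKM in βTC6 (SD, n = 3) and did not pass the test (log2 fold change -0.17, adjusted p = 0.0649).

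The G-protein-gated potassium channels differed in kind between the lines. Kcnj6 was called higher in βTC6, at 4.43, 2.83 and 4.52 FPKM against 0.05, 0.05 and 0.14 FPKM in αTC1 (log2 fold change 5.73, standard error 0.38, adjusted p = 1.25e-06). Kcnj9 was called higher in αTC1, at 2.03, 2.38 and 2.98 FPKM against 0.01 FPKM and 2 values of 0 in βTC6 (adjusted p = 4.30e-07). Kcnj3 was called higher in αTC1 too (log2 fold change -2.99, standard error 0.35, adjusted p = 5.28e-05), and Kcnj5 gave 0 in every library.

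Among the 9 adenylyl cyclases, the enzymes that make cyclic AMP, 5 reached the FPKM filter and 4 of these were called higher in βTC6. Which of them the receptors restrain was not tested. Among all genes with a count, Adcy7 (0.18, 0.20 and 0.15 FPKM in αTC1 and 0.79, 0.80 and 0.83 FPKM in βTC6, adjusted p = 4.72e-06) and Adcy8 were called higher in βTC6 too. Adcy8 gave no count in αTC1 and 57, 67 and 39 counts in βTC6 (adjusted p = 3.18e-06), and Adcy4 and Adcy5 did not pass. Adcy1 stood at 13.2, 10.9 and 15.1 FPKM in βTC6 and at most at 0.02 FPKM in αTC1, where libraries held no more than 2 counts (adjusted p = 3.25e-09). The most abundant member, Adcy6, was the one of the 5 lower in βTC6, with means of 26.4 ± 0.304 FPKM in αTC1 and 11.5 ± 1.12 FPKM in βTC6 (SD, n = 3), which differed by -1.14 on the log2 scale (standard error 0.08, adjusted p = 1.91e-06). That difference passed the FDR without the fold threshold.

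All 4 voltage-gated calcium channel subunits, of a channel type that the receptors restrain, passed the FDR. Cacna1b rose from 0.01, 0.01 and 0.06 FPKM in αTC1 to 4.68, 3.34 and 6.11 FPKM in βTC6 (adjusted p = 2.40e-08), and Cacna1a was the other subunit called in that direction. Cacna1c, the most abundant, was lower in βTC6, with means of 50.2 ± 3.14 FPKM in αTC1 and 12.5 ± 1.61 FPKM in βTC6 (SD, n = 3), which differed by -1.86 on the log2 scale (standard error 0.09, adjusted p = 1.67e-07).

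None of the 6 receptor kinases and arrestins, which switch occupied receptors off, was called, although by the FDR alone 3 were higher in βTC6 and 2 in αTC1. Adrbk1, the most abundant, had means of 66.8 ± 3.69 FPKM in αTC1 and 57.5 ± 4.13 FPKM in βTC6 (SD, n = 3) and did not pass (adjusted p = 0.0836). Of the tyrosine phosphatases, Ptpn6 was called higher in βTC6, at 4.54, 5.37 and 4.58 FPKM against 0.12, 0.13 and 0.10 FPKM (log2 fold change 6.01, standard error 0.31, adjusted p = 2.87e-07). Ptpn11 was higher by a log2 fold change of 0.82 (standard error 0.08). Among the scaffold genes, Pdzk1 was called higher in βTC6 but varied there, at 5.11, 10.6 and 1.98 FPKM (log2 fold change 6.93, standard error 0.89, adjusted p = 9.49e-05), and Shank2 was higher by 0.81 (standard error 0.11). Shank1 missed the filter, at 0.23 FPKM or less. Among all genes with a count it was lower in βTC6 by the FDR alone (log2 fold change -1.77, adjusted p = 0.0220), the closest libraries both at 0.08 FPKM.

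**Figure D5:**
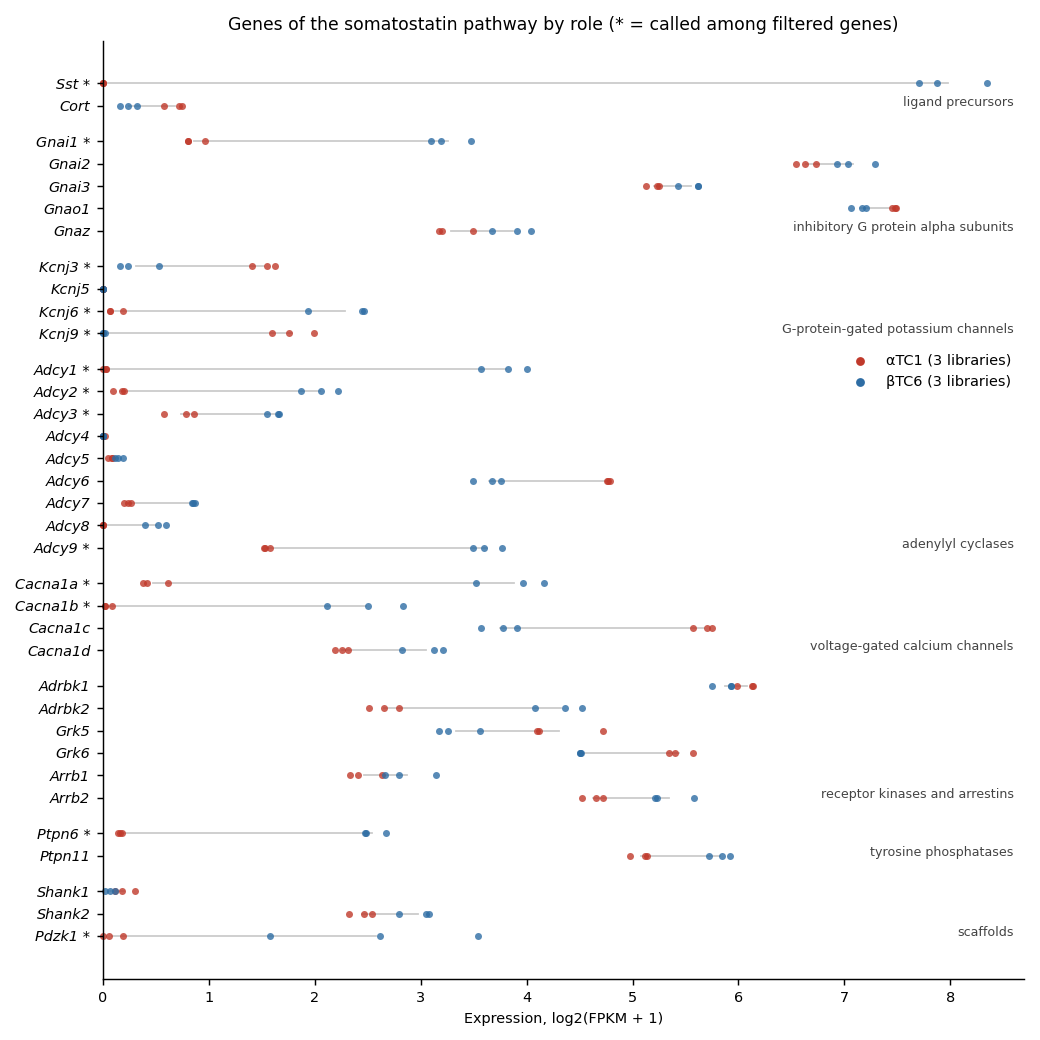
Expression of the 35 listed genes as log2(FPKM + 1), horizontal axis, grouped by role; points are the 3 αTC1 (red) and 3 βTC6 (blue) libraries, grey lines join the means and asterisks mark genes called among those past the FPKM filter. Sst spans the widest range, from 0 in αTC1 to between 207 and 325 FPKM in βTC6, and the called genes Kcnj3 and Kcnj9 have αTC1 to the right.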

How the data were processed

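ATAC-seq reads were trimmed with Trimmomatic 0.32, aligned to mm9 with BWA 0.7.9a, freed of duplicates with Picard 1.95 and used to call peaks with MACS2 2.1.0, according to the submitters' processing notes. Consensus peaks were formed with DiffBind 2.2.5 and annotated with HOMER 4.6. The authors deposited a signal per peak and library, the read count scaled by effective library size and TMM. Dividing each library by its lowest value gave whole reads for 100% of values (tolerance 0.01). The lowest value is therefore counted as 1 read and may stand for no reads. Whether reads were shifted for transposase binding is not given in the sources used here. RNA-seq reads were trimmed with Trim Galore 0.40, aligned with Bowtie2 2.23 and quantified with RSEM 1.2.12. The authors deposited expected counts and FPKM per gene; the library kit was stranded, but RSEM ran with its default parameters, which do not use strand. FPKM carries 2 decimals.

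Here, expected counts were rounded and tested with edgeR 4.0.16 (TMM, quasi-likelihood) in R 4.3.3, without spike-ins, among the 12195 genes whose FPKM reached 1 in each replicate of at least one line. Sstr1, Sstr2, Sstr4 and the pathway genes that missed this filter were tested among the 19570 genes with a count. Peaks were tested with limma 3.58.1 (trend) on log2 of the signal plus 1, 5 libraries against 5, and mixtures by their slope on composition. P-values were Benjamini-Hochberg adjusted over all features. A gene's standard error is its absolute log2 fold change over the square root of the F statistic. On simulated tables with a log2 change of 3, 200 of 200 changed genes among 12195, 200 of 200 peaks and 174 of 200 mixture slopes among 65053 were recovered, with 0, 0 and 8 unchanged ones called. Replicates differed beyond sampling noise (chi-square per feature above 1) and were each counted, but unevenly. In RNA-seq the value was 2.06 between αTC1 replicates 1 and 2 and 28.0 and 29.3 between these and replicate 3. In ATAC-seq αTC1 replicates 1 to 3 differed by 2.05 to 2.16 and from replicates 4 and 5 by 10.4 to 12.2, and βTC6 replicates 1 to 3 by 2.26 to 2.58 and from 4 and 5 by 4.77 to 8.27. Whether closer libraries share a culture is not given in the sources used here; p-values treat all libraries as independent.

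Named were all receptors and their peaks, both ligand precursors, and in each pathway role the member with the highest mean FPKM and the called member with the largest change. Kcnj3, Kcnj5, Cacna1a, Shank1 and the adenylyl cyclases below the FPKM filter were named in addition after their values were seen. Likeness was the Euclidean distance of gene-centred log2(FPKM + 1) over 6 libraries. One gene that this rule named for Sstr3 is not reported here. The members and lists were chosen with earlier results of these data known. Irx2, listed in 2 rows, was left out of the alpha markers. Gene models were GENCODE vM1 on mm9, and peak distances are those deposited. The RUVSeq step of the study was approximated with 1 factor from the spike-ins (0.436% to 0.971% of counts). Alternatives covered DESeq2 1.42.0, scaling, filters, pseudocounts, a block for replicate number, a term for replicates 1 to 3 against 4 and 5, edgeR on recovered reads and leaving out each library. Intervals and floors cover counting error only. Python 3.11.15 (pandas 2.3.3, numpy 2.4.6, matplotlib 3.10.9) served for the rest.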

Additional observations from a re-analysis of the deposited data

Results flagged for a closer look

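Of 42 groups of 5 libraries tested for a single far value with Dixon's test, 5 were past the 95% critical value, and chance gives about 1 in 20. At the Sstr3 intronic peak βTC6 replicate 1 held 8.09 normalized reads (57 reads), while the other βTC6 libraries held between 4.05 and 4.92. At the Sstr2 peaks 1.84 kb upstream and 12.6 kb downstream βTC6 replicate 4 was the lowest, with 3.28 normalized reads against 4.12 to 4.31 and with 6.71 against 7.53 to 7.84. At the Sstr4 peak 156 kb upstream αTC1 replicate 5 was the highest, with 15.0 normalized reads (104 reads) against 7.21 to 9.38 in the others. The same library was the highest at the Sstr4 peak 153 kb upstream, with 3.61 (25 reads) against 0.420 to 1.2, which alone made the lines overlap there.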

How the results depend on the processing

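Sstr3 (log2 fold change 2.91 to 3.12 without single libraries), Sstr1 (adjusted p 0.000189 to 0.00267) and Sstr5 (9.11e-06 to 0.000158) kept their direction and call under every alternative run for them, and Sstr4 stayed uncalled (adjusted p 0.0955 to 0.155 without single libraries). For Sstr1, Sstr2 and Sstr4 the alternatives other than the filter itself were added after seeing the data. Sstr2, below the fold threshold throughout, no longer passed the FDR with DESeq2 (1.19), with spike-in library sizes (1.17) and without 4 of the 6 libraries (0.87 to 1.53 over all 6); the cause was not tested. Genes called numbered 1245 higher in βTC6 and 498 in αTC1, 702 and 277 with limma on log2(FPKM + 1), 2510 and 1020 without the FPKM filter, where more genes were tested, and 1226 to 1281 and 481 to 508 without single libraries.

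Peaks called numbered 13794 and 5739 with edgeR on recovered reads (8 higher in βTC6 among receptor peaks), 1668 and 819 with a pseudocount of 5 (1 and 1), and 8151 to 8620 and 3314 to 3714 without single libraries (5 and 2 to 3). A mean of at least 5 left 3 and 1 receptor peaks called, since 3 of the called peaks were no longer tested. No receptor peak or slope that passed the FDR changed sign. Of those that did not pass, the Sstr2 peak 1.84 kb upstream went from 0.39 to -0.14 after quantile normalization, the empty Sstr1 peak 297 kb upstream moved about 0 (-0.05 to 0.02), and the mixture slopes of the Sstr2 peaks 18.6 kb and 1.84 kb upstream changed sign without single mixtures. The Sstr2 peak 1.84 kb upstream passed the FDR with a pseudocount of 5 (log2 fold change 0.20) and the Sstr5 peak after quantile normalization (-0.66). Without single mixtures 18803 to 21605 peaks had a positive and 12814 to 16041 a negative slope, among them 11 to 13 and 5 to 6 receptor peaks. The slopes that missed the FDR without 1 mixture were those of the Sstr1 peak 239 kb upstream, the Sstr4 peak 153 kb upstream and the Sstr5 peak.

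Deviations of same-numbered libraries correlated between -0.047 and 0.026 in RNA-seq and between -0.002 and 0.069 in ATAC-seq, and not every library correlated best with its own number, so the numbers were not taken as pairs. With the replicate number as a block 1241 and 503 genes and 8409 and 3502 peaks were called. Receptors at a handful of counts and peaks of under 10 reads are limited by depth.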
